A study of Rattus norvegicus with 24 samples.

Results

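The kidneys of Dahl salt-sensitive (SS) rats were compared between low and high salt overnight after the salt change, with 3 pairs of rats and 6 arrays out of 12 pairs and 24 arrays in the series. The arrays were chosen by their titles, which give the strain, the time and both rats, and a pair had 1 array in each dye orientation. The other groups, each of 3 pairs, were SS rats at 3 days and the consomic strain SS-13BN/Mcw, an SS rat with its chromosome 13 replaced by that of the Brown Norway strain, overnight and at 3 days. By the labels, every array compared kidney total RNA of a low-salt rat and a high-salt rat of its own strain, in Cy5 and Cy3. A pair consisted of rat 1, 2 or 3 and a rat with a higher number, and which of them was on high salt is not given in the sources used here. Age, sex, diet composition and kidney region are likewise not given there, and pairs of rats on the same salt were not analysed here.

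The SS rat develops hypertension and kidney damage on a high-salt diet, and the Brown Norway chromosome lessens both. The kidney sets salt balance along the nephron, where the proximal tubule takes back most of the filtered sodium, the thick ascending limb and distal tubule take back much of the rest, and the collecting duct makes the final adjustment. Injury of the salt-loaded kidney is known for matrix deposition, entry of leukocytes and loss of tubular transport and metabolic functions.

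The values were the deposited log ratios, in their own units. Neither the base of the logarithm nor the rat in the numerator is given in the sources used here. Genes are therefore described as positive or negative in the ratio, with no fold and no direction with salt. The median of an array was set to 0, and its pair value is the average of both dye orientations with no sign turned. Between 1187 and 1303 probes had a value on each SS overnight array, and the number of pairs limits the precision. The p-values rest on the spread between rat pairs, estimated over all 4 groups and moderated across probes. The kidney label could be checked only by whether marker genes had a value, because the table holds ratios and no levels. On at least 1 array a value was present for 22 genes of the proximal tubule list, 8 of the thick limb and distal tubule and 9 of the collecting duct. It was also present for 4 of the loop and inner medulla, 3 of the glomerulus and 2 of the endothelium. The 22 include Alb, which encodes the plasma protein albumin and is not a tubule marker. In kidney total RNA, fewer cells of a type and less RNA per cell cannot be told apart.

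The arrays of 1 pair resembled each other after the part common to a dye orientation had been removed. The correlation across probes between the arrays of pairs 1, 2 and 3 was then 0.428, 0.360 and 0.457, and it was positive in 12 of 12 pairs of the series (0.169 to 0.825). Before that step it was 0.427, 0.256 and -0.0217. The ratios were therefore taken to run from rat to rat, and not from dye to dye. The half-difference between orientations, which holds the dye effect, was more alike between pairs (r 0.594 to 0.793) than the pair values were, and turning arrays by dye would have called 325 probes. Pair 3 was the one in which the difference between orientations was as large as the part common to both arrays. The half-sum of its arrays had a standard deviation (SD) of 0.197 across probes and the half-difference 0.201. In pair 1 these were 0.314 and 0.202, and in pair 2 they were 0.255 and 0.198. Pair 1 thus had the widest spread of ratios. The pair values of pairs 1 and 2 correlated across probes with r = 0.569, those of pairs 1 and 3 with r = 0.449 and those of pairs 2 and 3 with r = 0.200. These coefficients describe the arrays, since genes are not independent replicates.

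Genes of tissue injury, matrix and protein folding made up 6 of the 11 that passed the test on the positive side, namely Timp1, Mt2A, Serpinh1, Serpina3n, Calr and Col3a1. The 4 lists that hold them (injury, matrix, matrix turnover, and chaperones with the proteasome) cover 65 of the 1139 tested probes (5.71%), and they were grouped with the calls known, so no test was made. Hpd and Akt1 passed on the negative side. In all, 13 of 1139 tested probes (1.14%) had an adjusted p under 0.05 in limma, 11 positive (0.966%) and 2 negative (0.176%), and each named 1 gene. At an unadjusted p under 0.05 there were 98 positive and 76 negative probes. Of the tested probes 1042 were measured in all 3 pairs and 97 in 2 of them. No call remained without pair 1 (77 probes at an unadjusted p under 0.05) or without pair 3 (213 such probes), and 6 probes were called without pair 2, of which 4 were among the 13. With arrays scaled to one spread 51 probes passed, 30 positive and 21 negative, and with quantile normalization 67, 37 positive and 30 negative. All 13 were among the called probes in both.

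Pair values held one sign in every measured pair for 475 of 1139 probes (41.7%), 251 of them positive and 224 negative. Among the 1042 probes with all 6 arrays, 67 were positive and 50 negative on every array (11.2% together). All 13 called genes had one sign on every array that measured them. The median SD of a probe over pairs was 0.138, and 42 probes had a mean farther than 0.5 from 0 in either direction.

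Timp1, a secreted inhibitor of matrix metalloproteinases, had the smallest p. It stood at 0.944, 0.628 and 0.699 in pairs 1, 2 and 3, with a mean of 0.757 ± 0.166 (SD, n = 3, adjusted p = 0.0109). Its 6 arrays lay between 0.596 and 1.03. All 3 pairs were high, and both dye orientations were close in each.

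Serpinh1 is the collagen-specific chaperone of the endoplasmic reticulum, and Col3a1 and Col1a1 are chains of fibrillar collagens. Serpinh1 had pair values of 0.726, 0.568 and 0.361 and a mean of 0.551 ± 0.183 (SD, n = 3, adjusted p = 0.0208). Col3a1 stood at 1.23, 0.469 and 0.433, with a mean of 0.712 ± 0.453 (SD, n = 3, adjusted p = 0.0435). Col1a1 had the highest mean of all tested probes, 0.947, from pair values of 1.55, 0.359 and 0.932, and did not pass (adjusted p = 0.0591). Pair 1 was the highest for each of these genes, and for Col3a1 both other pairs were under 0.5.

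Serpina3n, a secreted serine protease inhibitor of the acute response, stood at 0.910, 0.530 and 0.524 (mean 0.654 ± 0.221, SD, n = 3, adjusted p = 0.0249). Vcam1, the endothelial adhesion molecule that binds leukocytes, had pair values of 0.736, 0.637 and 0.393 (mean 0.589 ± 0.176, SD, n = 3, adjusted p = 0.0316). Vcam1 depended on the dye in size, not in sign. With the higher-numbered rat in Cy5 its arrays read 1.17, 0.948 and 0.575, and with that rat in Cy3 they read 0.302, 0.325 and 0.211.

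Mt2A, a metallothionein that binds zinc and copper, had pair values of 0.614, 0.452 and 0.648 and a mean of 0.571 ± 0.105 (SD, n = 3, adjusted p = 0.0177). These averaged arrays that differed by dye. Mt2A read 0.803, 0.819 and 0.808 with the higher-numbered rat in Cy5, and 0.425, 0.0851 and 0.487 with that rat in Cy3. Calr, the calcium-binding chaperone calreticulin of the endoplasmic reticulum, stood at 0.341, 0.245 and 0.411, with a mean of 0.332 ± 0.0835 (SD, n = 3, adjusted p = 0.0374). Its mean was the lowest of the 11 positive genes and its SD one of the smallest. Both genes are textbook cases of promoters that answer a stress, metallothioneins to metals through the metal response element and calreticulin to unfolded protein through the endoplasmic reticulum stress element. Their promoters, 250 bases before the annotated start in RefSeq's sequence of the build GRCr8, are shown for that reason, at chr19:10838709-10838958 on the minus strand for Mt2A and chr19:40213117-40213366 on the plus strand for Calr. Capitals mark matches to a loose form of the metal response element core (TGCNCNC or its reverse GNGNGCA) and the TATA box (TATAAA) in Mt2A. In Calr they mark the endoplasmic reticulum stress element and the TATA box.
Mt2A: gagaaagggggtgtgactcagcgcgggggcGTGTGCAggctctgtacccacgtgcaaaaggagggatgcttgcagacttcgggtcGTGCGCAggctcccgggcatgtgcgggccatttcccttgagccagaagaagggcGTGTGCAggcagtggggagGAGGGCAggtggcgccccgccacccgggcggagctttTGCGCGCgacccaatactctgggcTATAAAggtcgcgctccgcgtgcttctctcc
Calr: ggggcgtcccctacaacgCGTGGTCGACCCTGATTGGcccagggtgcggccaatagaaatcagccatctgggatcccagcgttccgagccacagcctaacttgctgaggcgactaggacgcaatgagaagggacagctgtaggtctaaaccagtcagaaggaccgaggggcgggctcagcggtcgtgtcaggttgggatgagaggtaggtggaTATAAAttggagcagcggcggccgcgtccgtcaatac

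The Mt2A window held 5 matches to the loose form of the metal response core and 1 TATA box, and an AP-1 match (TGANTCA) was left in lower case. The usual core is the stricter TGCRCNC, where R is A or G, and the match GAGGGCA does not meet it. All counts of the metal core here are for the loose form. At least 1 metal core stood in 43.4% of 33469 rat promoters searched on both strands, and 5 or more in 124 of them (0.37%). That cutoff equals the count in Mt2A, so the share is a description and not a test. The Calr window held the stress element in its reverse form (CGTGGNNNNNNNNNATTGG), which with its forward form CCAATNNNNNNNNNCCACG was found in 22 promoters (0.0657%), and a TATA box, found in 12.9%. Of the 13 called genes 11 were in the promoter table, and the others were Csnk2b and Col3a1. The metal core was present in 6 of these, AP-1 (6.34% of all promoters) in 2, the TATA box in 3, the heat shock core GAANNTTC (7.23%) in 2, the stress element in 1 and an NF-kappaB site (0.314%) in 0. A match describes letters in the window and not a bound factor.

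The other positive genes serve signalling, transport and protein modification. Csnk2b, the regulatory subunit of protein kinase CK2, stood at 1.17, 0.341 and 0.879 (mean 0.796 ± 0.419, SD, n = 3, adjusted p = 0.0305). Tsc22d1, a leucine zipper transcription regulator induced by TGF-beta, had 1.07, 0.471 and 0.55 (mean 0.697 ± 0.325, SD, n = 3, adjusted p = 0.0208). Both were highest in pair 1 and lowest in pair 2.

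Dynll1, a light chain of the dynein motor, had the most even pair values of the called genes, 0.592, 0.549 and 0.499 (mean 0.546 ± 0.0464, SD, n = 3, adjusted p = 0.0177). Fntb, the beta subunit of protein farnesyltransferase, stood at 0.512, 0.598 and 0.431 (mean 0.514 ± 0.0835, SD, n = 3, adjusted p = 0.0316). In both genes the even pair values averaged arrays that differed by dye. Dynll1 read 0.906, 0.732 and 0.75 with the higher-numbered rat in Cy5, and 0.278, 0.366 and 0.248 with that rat in Cy3.

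On the negative side Hpd, the dioxygenase of tyrosine breakdown, had pair values of -0.633, -0.365 and -0.462 and a mean of -0.487 ± 0.136 (SD, n = 3, adjusted p = 0.0305). All 6 arrays were negative, from -0.718 to -0.242. Akt1, a kinase of insulin and growth factor signalling, had both orientations in pairs 1 and 2 alone, at -0.792 and -0.658, with a mean of -0.725 ± 0.095 (SD, n = 2, adjusted p = 0.0369). Its orientations disagreed in size in opposite ways, with -1.15 and -0.440 in pair 1 and -0.265 and -1.05 in pair 2 for the higher-numbered rat in Cy5 and in Cy3. The 1 array of pair 3 that measured it read -0.140, and with pairs of 1 orientation also used Akt1 stood at -0.53 and did not pass (adjusted p = 0.180).

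**Figure D1:**
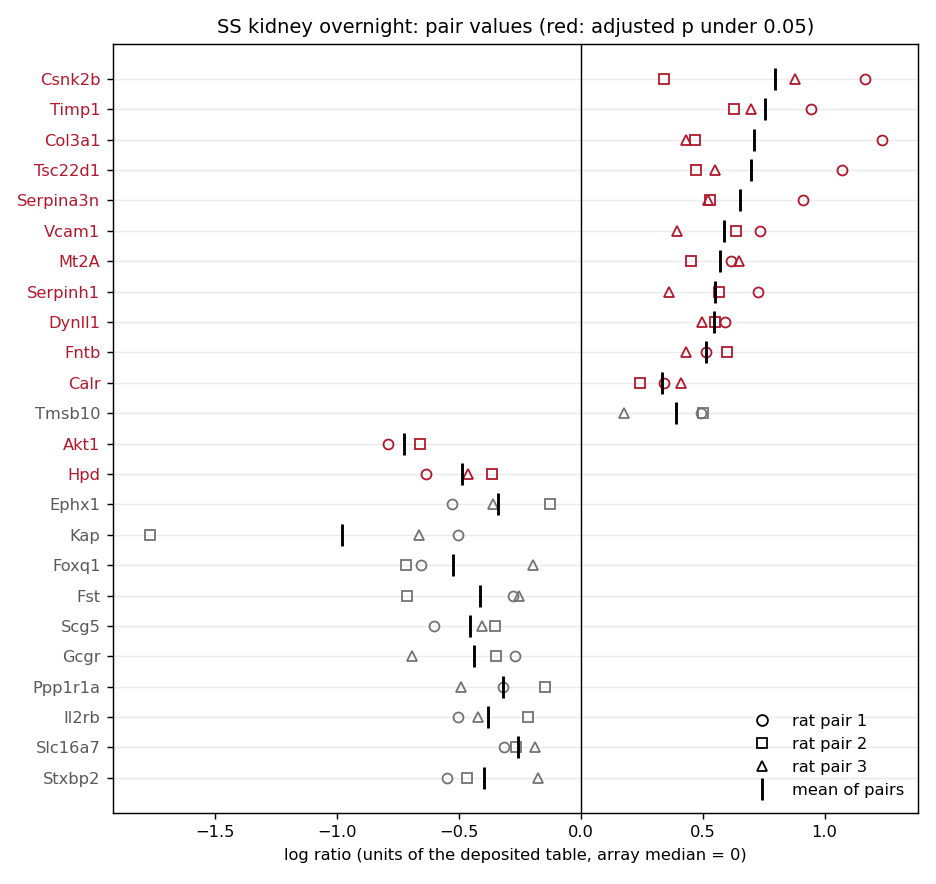
Log ratio in each rat pair (symbols) and the mean of the pairs (vertical bars) for the 13 genes past the threshold (red) and 11 genes not past it (grey), which fill each side to 12 by smallest p with one sign in every pair, in SS kidneys overnight, with genes down the page. Every symbol of a gene lies on one side of 0, pair 1 is highest for Csnk2b, Col3a1 and Tsc22d1, and Kap has 1 pair at -1.77.

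**Figure D2:**
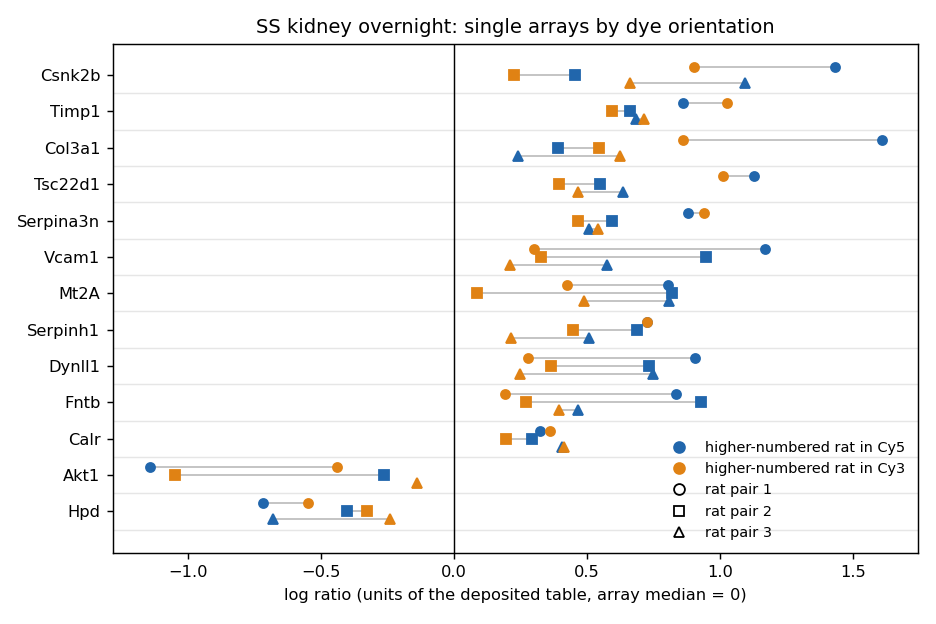
Log ratio on single arrays of the 13 genes past the threshold, with the higher-numbered rat in Cy5 (blue) or in Cy3 (orange) and a grey line joining both arrays of a pair. Timp1, Serpina3n and Calr have short lines. Vcam1, Mt2A, Dynll1, Fntb, Csnk2b, Tsc22d1 and Serpinh1 are higher on the blue array of every pair, Serpinh1 only slightly in pair 1. No array of a gene crosses 0.

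Next to these on the positive side came Tmsb10, an actin-binding thymosin, at 0.391 from pair values of 0.495, 0.501 and 0.178 (adjusted p = 0.0591). On the negative side 10 more genes were named, and none passed. Kap, the androgen-regulated protein of the proximal tubule, had the lowest mean of all tested probes, -0.979 ± 0.687 (SD, n = 3, adjusted p = 0.0688). Its pair values were -0.505, -1.77 and -0.665, so pair 2 stood more than 1 below the others. The others were Ephx1, a microsomal epoxide hydrolase, at -0.338, the forkhead factor Foxq1 at -0.523, follistatin (Fst), which binds activin, at -0.415, and Scg5, a secretory granule chaperone, at -0.453. Gcgr, the glucagon receptor, had a mean of -0.436, Ppp1r1a, an inhibitor of protein phosphatase, -0.318, and Il2rb, a chain of the interleukin receptor, -0.379. The monocarboxylate transporter Slc16a7 was at -0.258 and Stxbp2, a protein of vesicle fusion, at -0.396. Their adjusted p ran between 0.0658 and 0.112. All 24 of the named genes had one sign in every measured pair, as the rule for naming asks, and 18 of them had one sign on every array.

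Genes of injury and acute response lay mostly on the positive side. Of 22 with a value 18 were tested, 15 positive and 3 negative, with a median of 0.246, against 0.00707 over all 1139 probes, of which 588 were positive. Timp1, Mt2A and Serpina3n passed, 3 of 18 beside 0.966% of all probes. Clu, the secreted chaperone clusterin, stood at 0.442 (0.789, 0.141 and 0.398 in pairs 1 to 3; adjusted p = 0.0688), and Cp, the copper carrier ceruloplasmin, at 0.391 (0.352, 0.373 and 0.448; adjusted p = 0.0719). The negative members were the stress regulators Ppp1r15a and Gadd45a, at -0.109 and -0.107, and the matrix receptor Cd44 at -0.0706.

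Collagens, their processing enzymes and matrix proteins had 20 of 25 members tested, 16 positive and 4 negative, with a median of 0.209 and pair medians of 0.305, 0.194 and 0.103. Serpinh1 and Col3a1 passed. Nid1, the basement membrane protein nidogen, stood at 0.305 (0.360, 0.289 and 0.265; adjusted p = 0.119). Lum at -0.192, Lamb2 at -0.135, Sdc2 at -0.109 and Cd44 were negative. Among 13 proteases and inhibitors of matrix turnover 12 were positive (median 0.173), with Timp1 and Serpina3n past the threshold. The gelatinase Mmp2 stood at 0.221 in pair values of 0.198, 0.199 and 0.267 (adjusted p = 0.309). Its arrays differed by dye, at 0.452, 0.538 and 0.446 with the higher-numbered rat in Cy5, and -0.0556, -0.139 and 0.0868 with that rat in Cy3.

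Inflammation and interferon genes had 11 positive members of 12 tested, a median of 0.201 and Vcam1 past the threshold. Il6r, a receptor for interleukin 6, stood at 0.233 (adjusted p = 0.208) and the interferon regulator Irf1 at 0.306 (adjusted p = 0.309). Spp1, Timp1, Serpina3n and Cd44 stand in more than one of these lists, so their counts overlap. Markers of leukocytes, 7 tested of 11 with a value, had a median of 0.235 (0.130 without pair 1), with 6 positive. Cd53, a tetraspanin of leukocytes, was at 0.449 (0.898, 0.306 and 0.142; adjusted p = 0.163), and the class I gene RT1-A1 at -0.298, from 0.120, -1.34 and 0.323 (0.222 without pair 2). Smooth muscle and myofibroblast markers, 9 tested of 11 with a value, had a median of 0.114 (0.234 without pair 2), from Tagln at 0.758 (1.51, 0.265 and 0.502) to Actg2 at -0.109, and Acta2, the actin of smooth muscle, stood at -0.0386 (0.0853 without pair 2). No marker of leukocytes, smooth muscle or red cells passed, and of the 2 endothelial markers Vcam1 passed and Kdr stood at -0.0185. The part of these cells in the matrix and inflammation values was not tested. Red cell genes gave 3 values, with Hbb at -0.174, Slc4a1 at -0.208 and Hba-a1 at 0.0252.

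Proximal tubule genes stood farthest to the negative side among the lists. Of 22 with a value 19 were tested. Slc4a4, Cubn and Alb, which encodes albumin and is not a tubule marker, were not. On the negative side were 17, the median was -0.572 and the pair medians were -0.505, -0.625 and -0.25. None passed after adjustment, and 9 of 19 had an unadjusted p under 0.05 in limma, all negative, beside 76 negative probes of 1139 (6.67%). Anpep, the aminopeptidase of the brush border, had -0.833, -1.44 and -0.430 (mean -0.901, adjusted p = 0.175). Aadat, an aminotransferase, had -0.940, -0.999 and -0.426 (mean -0.789, adjusted p = 0.159), and Hao2, a peroxisomal oxidase of hydroxy acids, -0.592, -1.12 and -0.651 (mean -0.788, adjusted p = 0.158). Pair 2 was lowest in each of these, as in Kap. Gsta2, a glutathione transferase, was at -0.760, the cytochrome Cyp2d4 at -0.666 in 2 pairs, and the endocytic receptor Lrp2 (megalin) at -0.572 with even pairs of -0.495, -0.542 and -0.678. The water channel Aqp1 at 0.112 and Fbp1 of gluconeogenesis at 0.152 were the positive members.

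Enzymes of amino and oxo acid metabolism, which share Hao2, Aadat and Agxt2 with the tubule list, had 20 negative members of 21 tested, a median of -0.177 and Hpd past the threshold. Over all 1139 probes 551 were negative, and 2 passed on that side (0.176%). Hibadh, of valine breakdown, stood at -0.253 (-0.351, -0.225 and -0.182; adjusted p = 0.128), and Bcat2, of branched-chain amino acid breakdown, at -0.352 (-0.242, -0.668 and -0.146; adjusted p = 0.153). Arachidonic acid genes had 6 negative members of 7 tested (median -0.325). The median was about -0.144 without pair 1 or pair 2, but over fewer genes. Cyp2c23 and Cyp4f1, each measured in 2 pairs, both drop out without pair 1, and Cyp4f1 also without pair 2. Cyp2c23, the main epoxygenase of the rat kidney, was at -0.60 in pairs 1 and 3 (adjusted p = 0.190), and Ptger1, a prostaglandin E receptor, at -0.336 (adjusted p = 0.140). Glutathione and antioxidant genes were 11 negative of 16 (median -0.0717, and -0.11 without pair 3).

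Beyond the proximal tubule, nephron markers were nearer 0. All 7 tested thick limb and distal genes were negative, with a median of -0.102 (-0.154 without pair 2 and -0.0562 without pair 3). So were all 8 collecting duct genes, with a median of -0.122 (-0.0671 without pair 3). The same sign in all pairs was held by 2 of the 7 and 5 of the 8. Loop and inner medulla genes lay mostly on the other side, with 3 positive of 4 tested (median 0.0839, and -0.0621 in pair 3). They ran from S100a4 at -0.0215 to Akr1b1 at 0.301, and 1 of the 4, Aqp1, held the same sign in all pairs. Aqp1 stands in the proximal tubule list as well, and S100a4 in the smooth muscle and myofibroblast list. The values of this list are therefore not particular to its segment. Slc12a1, the sodium-potassium-chloride cotransporter of the thick limb, had pair values of -0.283, -0.391 and -0.175 (mean -0.283, adjusted p = 0.119). Its arrays differed by dye, at -0.593, -0.771 and -0.484 with the higher-numbered rat in Cy5, and 0.0281, -0.00983 and 0.134 with that rat in Cy3. Umod, uromodulin of the thick limb, was at -0.102. The sodium pump and transport list was split, 4 positive and 4 negative of 8 (median 0.00245, and -0.0183 to 0.0137 with 1 pair left out). Its positive members included Slc12a2, the cotransporter's more widespread form, at 0.205 (0.238, 0.345 and 0.0314), and Atp1b1, the beta subunit of the sodium pump, at 0.195 (0.107, 0.25 and 0.228). Scnn1a, the alpha subunit of the epithelial sodium channel, was at -0.0494. Of 8 renin, steroid and vasoactive genes none passed, with Agt, angiotensinogen, at -0.272 (-0.386, -0.301 and -0.128; adjusted p = 0.50), Nr3c2, the mineralocorticoid receptor, at -0.212 (adjusted p = 0.367) and Sgk1, an aldosterone-induced kinase, at -0.102 (0.0324 without pair 1).

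Cholesterol synthesis and uptake genes had 9 positive members of 10, beside 588 of all 1139 probes, a median of 0.247 (0.109 without pair 1) and none past the threshold. Mvd, of the mevalonate pathway, stood at 0.370 (0.446, 0.215 and 0.45; adjusted p = 0.117), Sqle, the squalene epoxidase, at 0.343 (0.559, 0.201 and 0.268; adjusted p = 0.118) and Cyp51, the lanosterol demethylase, at 0.383 (0.626, 0.279 and 0.245; adjusted p = 0.158). Apoe, the lipoprotein ligand, was at 0.601 with 1.17 in pair 1 and at most 0.324 in the others. Ribosomal protein and translation genes were positive in 34 of 35, by small amounts (median 0.123, lowest -0.150, highest 0.245), and the pairs differed, with medians of 0.146, 0.274 and -0.0564. Without pair 2 the median was 0.0573 and without pair 3 it was 0.214. Pair 3 was thus on the other side of 0, and 4 of the 35 had one sign in all pairs. That list was matched by the start of the symbol and includes the kinase Rps6kb1.

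Of 20 chaperone and proteasome genes 18 were positive (median 0.0880), beside 588 of all 1139 probes. Serpinh1 and Calr were past the threshold, which 11 of all probes passed on the positive side (0.966%) and 2 on the negative (0.176%). Actin and microtubule genes had 13 positive of 19 (median 0.195) and Dynll1 past it. In that list Actb, cytoplasmic actin, stood at 0.331 (0.528, 0.236 and 0.230) and Tubb5, a tubulin, at 0.335 (0.300, 0.230 and 0.475), both with an adjusted p of 0.0688. Growth and immediate early genes were split, 10 positive and 12 negative of 22 tested, with Csnk2b and Tsc22d1 past the threshold on the positive side and Akt1 on the negative. Respiratory chain and citrate cycle genes (9 positive of 19, median -0.0110), glycolysis and gluconeogenesis (7 of 14, median -0.0033) and lipid oxidation (9 of 24, median -0.0566) had medians near that of all probes and no member past the threshold. With 1 pair left out the medians of respiratory chain and glycolysis genes lay on either side of 0, between -0.0353 and 0.0352 and between -0.0316 and 0.0106. In the glycolysis list Khk and Slc2a2, each measured in 2 pairs, drop out when 1 of those pairs is left out.

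**Figure D3:**
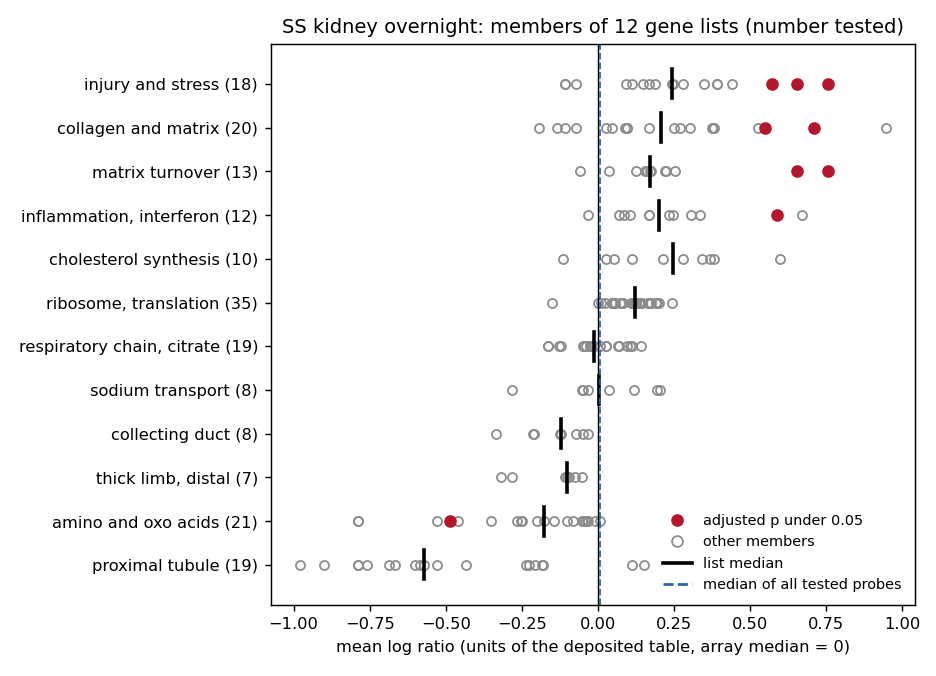
Mean log ratio over rat pairs of each tested member of 12 gene lists in SS kidneys overnight (circles; filled red past the threshold), with the list median (black bar) and the median of all tested probes (dashed line). Proximal tubule genes extend to -0.979 with a median of -0.572, while injury, matrix and cholesterol genes lie mostly on the positive side.

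Most SS values lay on the same side as those of SS-13BN/Mcw rats overnight. Over 1053 probes measured in at least 2 pairs of both strains 795 (75.5%) had means on the same side, and the means correlated with r = 0.771, a description across probes that share array, array centring and dyes. The means spread less in SS (SD 0.199) than in SS-13BN/Mcw (SD 0.296). The proximal tubule median was -0.572 in SS and -1.0 in SS-13BN/Mcw, while the injury list had 0.246 in SS and 0.338 in SS-13BN/Mcw. Pair 3 of SS-13BN/Mcw was far the lowest in Hao2 (-0.982, -1.15 and -2.59), Aadat (-1.10, -1.44 and -2.55), Gsta2 (-0.930, -1.20 and -2.52) and Cyp2d4 (-0.222, -0.423 and -1.23). Kap had no value in that pair, and the list median was not taken by pair in SS-13BN/Mcw. In the test of the strain difference 0 of 1053 probes passed in limma (0%), and 53 had an unadjusted p under 0.05. SS overnight slides were numbered 18 to 23 and all others 24 to 43, so the slide number and the group cannot be told apart here or in the time comparison.

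Hpd had -0.633, -0.365 and -0.462 in SS pairs, against -0.712, -0.866 and -0.770 in SS-13BN/Mcw pairs. The groups did not overlap, as was so for 115 of the 1053 probes (10.9%), and the difference of 0.296 had a 95% interval of 0.00844 to 0.583 (adjusted p = 0.898). Foxq1 stood at -0.655, -0.719 and -0.195 in SS, against 0.365, -0.131 and 0.315 in SS-13BN/Mcw, the lowest p among the named strain differences (-0.706 ± 0.175, SE, adjusted p = 0.898). Every SS pair was below every SS-13BN/Mcw pair, which the rule for naming differences asks. On the other side of 0, Cycs, cytochrome c, had 0.163, 0.00625 and 0.172 in SS, against -0.284, -0.374 and -0.988 in SS-13BN/Mcw, a difference of 0.662 ± 0.204 (SE, adjusted p = 0.898). The SS side of Cycs is not settled, with a mean of 0.114 (adjusted p = 0.733 against 0 in limma). With the higher-numbered rat in Cy5 and in Cy3 its SS arrays read -0.442 and 0.455 in pair 2, and -0.0939 and 0.438 in pair 3.

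Pros1, the anticoagulant protein S, had means of -0.0156 in SS and -0.445 in SS-13BN/Mcw, a difference of 0.429 ± 0.116 (SE, adjusted p = 0.898), and the SS mean was 0.00695 with arrays scaled to one spread and 0.0201 with quantile normalization. Myl2, a myosin light chain, had 0.202 in SS and -0.260 in SS-13BN/Mcw, each in 2 pairs. Akap9, an anchoring protein for kinases, had -0.272 in SS and 0.0222 in SS-13BN/Mcw, and Sfrp4, a secreted Wnt antagonist, had -0.311 in SS and 0.0816 in SS-13BN/Mcw. The Sfrp4 arrays of SS pair 1 read 0.0989 and -1.42 with the higher-numbered rat in Cy5 and in Cy3. Of the SS arrays with a value Sfrp4 was positive on 2 of 6, Myl2 on 3 of 5 and Pros1 on 3 of 6. None of these genes passed. Timp1 stood at 0.757 in SS and 0.709 in SS-13BN/Mcw, and Serpinh1 at 0.551 in SS and 0.535 in SS-13BN/Mcw. Their differences of 0.0478 (95% interval -0.251 to 0.346) and 0.0160 (-0.283 to 0.315) had intervals that hold both signs. Of the 12 called genes measured in at least 2 SS-13BN/Mcw pairs none had a mean on the other side there, and Akt1, at 0.00513, had 1 SS-13BN/Mcw pair.

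**Figure D4:**
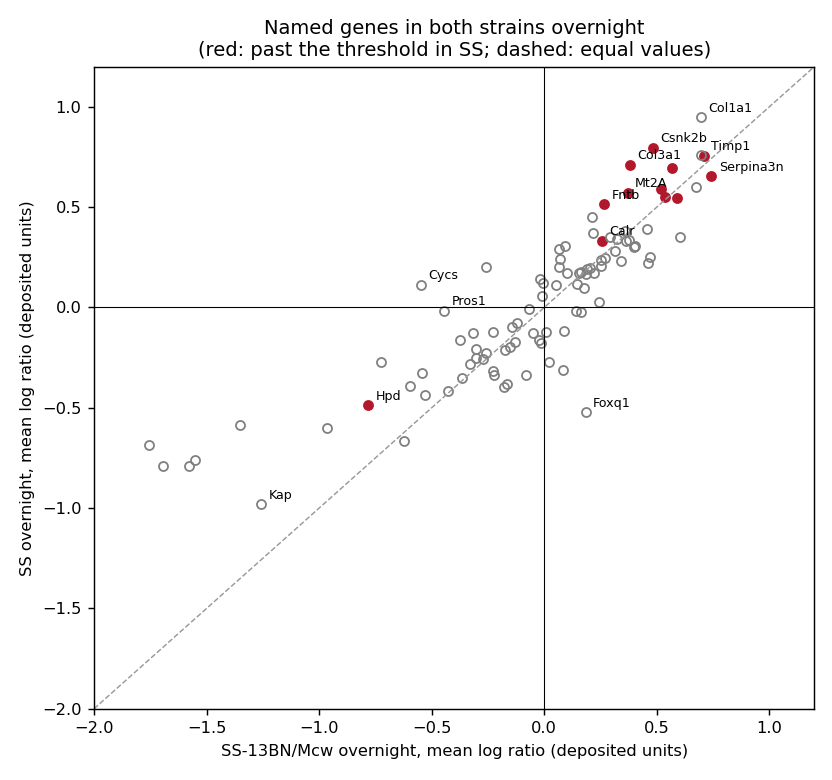
Mean log ratio of the named genes with at least 2 pairs in both strains, SS overnight on the vertical axis and SS-13BN/Mcw overnight on the horizontal axis, with genes past the threshold in SS in red and a dashed line of equal values. Red genes lie on the same side in both strains, and Kap and its neighbours reach farther from 0 in SS-13BN/Mcw. The means of Foxq1 and Cycs lie on opposite sides of 0 in the strains, while single SS arrays of Cycs lie on both sides.

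Between SS overnight and SS at 3 days 0 of 880 probes passed in limma (0%), and 17 had an unadjusted p under 0.05. The titles give rats 1 to 3 to the pairs of both times, and whether these are the same animals is not given in the sources used here. The test took the pairs of both times as independent. If a rat is shared, likeness of the times through that rat cannot be told apart from a like response. Values are therefore set side by side. Vcam1 had 0.736, 0.637 and 0.393 overnight, against 0.349 and -0.157 in pairs 1 and 3 at 3 days, a difference of 0.493 ± 0.166 (SE, adjusted p = 0.988). Tsc22d1 had 1.07, 0.471 and 0.55 overnight, against 0.429, -0.0616 and 0.269 at 3 days (0.485 ± 0.175, SE, adjusted p = 0.988). Neither gene's overnight values overlapped those at 3 days, as was so for 66 of the 880 probes (7.5%).

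Serpinh1 and Calr had close means at both times, at 0.551 overnight and 0.60 at 3 days for Serpinh1, and 0.332 overnight and 0.323 at 3 days for Calr. The 95% interval of the difference was -0.347 to 0.249 for Serpinh1 and -0.197 to 0.216 for Calr. Among the cholesterol genes Mvd had 0.446, 0.215 and 0.45 overnight, against 0.0429 and -0.258 in pairs 1 and 2 at 3 days (0.477 ± 0.153, SE, adjusted p = 0.988). Msmo1, a sterol oxidase, had 0.541, 0.262 and 0.0360 overnight, against 0.00809, -0.516 and -0.243 at 3 days (0.530 ± 0.165, SE, adjusted p = 0.988). The median of that list was 0.247 overnight and -0.0521 at 3 days.

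Akt1 was at -0.792 and -0.658 overnight, against -0.0861 and 0.130 in pairs 1 and 3 at 3 days, a difference of -0.747 ± 0.147 (SE, adjusted p = 0.988). Foxq1 had a mean of -0.523 overnight and 0.0737 at 3 days, in 2 pairs. The syndecan Sdc4, a cell surface proteoglycan, had 0.0967 overnight and -0.138 at 3 days, and the G protein subunit Gng7 had -0.117 overnight and 0.157 at 3 days. Neither passed. Proximal tubule genes had a median of -0.572 overnight and -0.610 at 3 days.

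**Figure D5:**
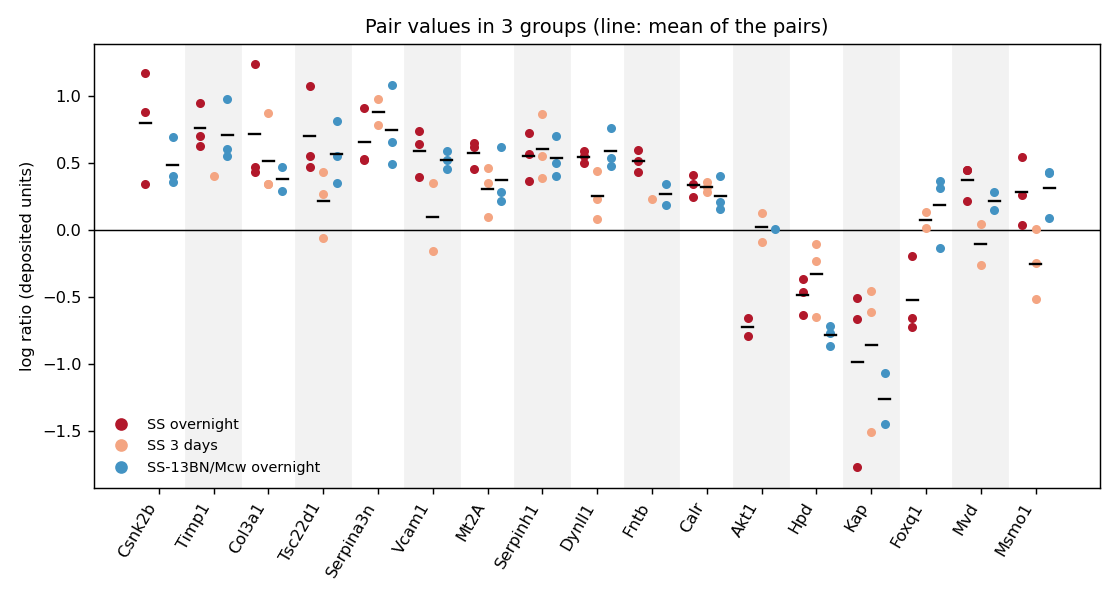
Log ratio of each rat pair for the 13 called genes and for Kap, Foxq1, Mvd and Msmo1 in SS overnight (dark red), SS at 3 days (light red) and SS-13BN/Mcw overnight (blue), with a line at the mean of 2 or more pairs. Serpinh1 and Calr overlap in the 3 groups, Vcam1 and Tsc22d1 are lower in SS at 3 days, and Foxq1 is lowest in SS overnight.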

How the data were processed

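The authors deposited 1 log ratio per probe and array, with log base, numerator, background correction and filters not given in the sources used here. Array means were within 0.000822 of 0. Array medians were up to 0.0668 from 0, so each array was centred on its median. Of 3742 probe identifiers 1766 had a value on at least 1 array. By the array's annotation 1426 of these had 1 gene symbol, 29 several and 311 none, and 1421 symbols were found in the rat gene table. For 4 genes there were several probes.

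The arrays of a pair were averaged, and limma fitted a mean for every group in 1 model of all 12 pairs (8 residual degrees of freedom) with eBayes, two-sided tests and Benjamini-Hochberg adjustment at 0.05. A probe needed both orientations in at least 2 of 3 pairs of each group compared. The comparisons were SS overnight against 0, SS minus SS-13BN/Mcw overnight, and SS overnight minus SS at 3 days. Named genes were up to 15 per direction past the threshold with one sign in every measured pair, filled to 12 per direction by smallest p, up to 4 per list, and for differences up to 5 per direction, filled to 3. Other list members were named after their values were seen. The members, lists and motifs were chosen with earlier results of these data known.

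Low rat numbers 1 to 3 recur at both times. Deviations of the pairs from the group mean correlated between times with r = 0.494 for rat 1, -0.0241 for rat 2 and 0.620 for rat 3, so the block was kept as an alternative. Alternatives covered centring, scale, quantile normalization, an array-level fit, dye direction, groups in the fit, missing values, robust moderation, probes of a gene and each pair left out. The fits used limma 3.58.1 (R 4.3.3, statmod 1.5.0), and the figures matplotlib 3.10.9 in Python 3.11.15.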

Additional observations from a re-analysis of the deposited data

How the results depend on the processing

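The count of 13 called probes was 14 with values as deposited, 12 with all 3 pairs required, 9 with pairs of 1 orientation also used, 12 with robust moderation and 13 with probes of a gene averaged. It was 51 with arrays scaled to one spread and 67 with quantile normalization, and all 13 were among them. The array-level fit called 49 (12 of the 13, without Akt1), and a fit of SS overnight alone 31 (11 of the 13, without Col3a1 and Calr). Leaving out 1 pair gave 0 to 6 calls, with 0 without pair 1 or pair 3. With the low-numbered rat as a random replicate block 15 probes were called, among them all 13. With that random block the strain and time differences had 0 calls, as had the time difference with a fixed replicate block on 701 probes. The fixed block gave 26 probes at an unadjusted p under 0.05 in limma, against 9 without the block on the same probes. That comparison was chosen after seeing the data. Both differences had 0 calls in the main fits, so a block could lose none there. Strain calls were 0 throughout except 1 in the array-level fit, and time calls were 0 under every alternative run. Turned by dye, as if ratios were Cy5 over Cy3, 325 probes passed, 4 of them among the 13, and these means changed side: Timp1 -0.0213, Akt1 0.0201, Ephx1 0.0583, Kap 0.0177, Foxq1 0.173, Scg5 0.0317, Gcgr 0.118, Ppp1r1a 0.0658, Cyp2d4 0.252, Egf 0.0203, Ptger1 0.0752, Aqp3 0.148, S100a4 0.161, Kdr 0.0109, Vim -0.217, C1qb -0.232, Ctsd -0.0713, Hsd11b2 0.143, Slc12a2 -0.0257, Atp1b3 -0.132, Ggt1 0.00775, Bcat2 0.00988, Acot1 -0.00849, Idh1 0.105, Aco1 0.168, Ldhb 0.311, Khk 0.0101, Mvd -0.138, Cyp51 -0.257, Rps6 -0.0237, Fkbp1a -0.173, Psmc2 -0.156, Tubb5 -0.186, Hbb 0.222, Hba-a1 -0.0712, Cycs -0.198, Myl2 -0.256, Sfrp4 0.333. With 1 pair left out 78 of the 297 list members measured in 3 pairs changed side, none of them called. Among the genes that the naming rule covers these were 5, with means between -0.13 and 0.0582 for S100a4, -0.0612 and 0.18 for Cryab, -0.236 and 0.154 for Thy1, -0.0799 and 0.0994 for Hba-a1, and -0.101 and 0.113 for Kdr. At a single omission S100a4 was at 0.0582 or 0.00772 and Thy1 at 0.154 or 0.06. Pros1 was at 0.00695 with scaled arrays and 0.0201 after quantile normalization. The array-level fit gave no list medians. The causes were not tested. Signal over background is not given in the sources used here.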

Other observations

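Some genes outside the lists' leading members had large ratios in 1 pair. Pdgfra, a growth factor receptor of fibroblasts, stood at 1.01, 0.564 and 0.115 in pairs 1, 2 and 3 (mean 0.564, adjusted p = 0.335), and C1s, a protease of complement, at 1.38, 0.485 and 0.147 (mean 0.671, adjusted p = 0.367). Decorin (Dcn), a small proteoglycan of matrix, had 0.823, 0.309 and 0.00993 (mean 0.381, adjusted p = 0.466), and matrix Gla protein (Mgp) had 1.10, 0.236 and 0.248 (mean 0.528, adjusted p = 0.185). In each of these 4 genes pair 1 was the highest, and none passed. They were chosen after their values were seen.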
